A study of Mus musculus with 10 samples.

Results

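The Hox genes encode homeodomain transcription factors that lie in 4 clusters, HoxA to HoxD, and are numbered by paralogue from 1 to 13 along each cluster. They were taken as every transcript cluster of the gene-level array, and every probe set of the exon-level array, whose platform annotation gave 1 symbol of the form Hoxa, Hoxb, Hoxc or Hoxd followed by a number. This gave 32 genes with 1 transcript cluster each, of 14860 genes with a named cluster, and 197 probe sets of 33 genes. The RefSeq table holds 39 mouse Hox genes, and the other 7 were not analysed here at the gene level. The tissue was total RNA of spinal cord segment T10 from wild-type ICR mice, an outbred stock, given as 4 weeks old in every group. One group had a sham operation, and the others were collected 1 day, 3 days, 1 week or 3 weeks after spinal cord injury. Each group was 1 RNA pool of 3 mice on 1 array per level, so no value below has a replicate, a test or a p-value. The labels do not give the way the cord was injured, the time of collection of the sham animals, or whether the age is that at surgery.

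Hox genes are transcribed in the order in which they lie along the chromosome, and each is expressed up to a front limit in the embryonic neural tube. The combination present at a level of the cord sets the identity of its motor neurons and interneurons, and part of the code is kept in adult tissue. Low paralogue numbers belong to the hindbrain and neck, the middle numbers to the brachial and thoracic cord, and the high numbers to the lumbar and sacral cord and the tail. The genes were therefore followed in 4 classes, paralogues 1 to 3, 4 to 7, 8 to 9 and 10 to 13.

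Signals are log2 values as deposited. A gene was kept where its highest value on the 5 arrays reached 3.79, the 40th percentile over the gene-level table, which left 11280 genes and 30 of the 32 Hox genes. Hoxa11 and Hoxb13 stayed below that level on every array. Hoxc5 and Hoxc12 were below it in sham and passed through injured arrays. "Rose" and "fell" are used below for a change of at least 2-fold from sham, which is 1 on the log2 scale. In sham cord, all 17 neuron, 11 oligodendrocyte and 11 astrocyte markers with a cluster lay above the filter level. Of 12 genes of brain regional identity, such as those of the forebrain and midbrain, 5 reached it, with sham signals from 3.80 to 5.36. En1 among them is also listed below as a factor of spinal neuron identity. Of all 14860 genes with a named cluster, 10688 reached it in sham. Array medians of the gene level ran from 4.52 at 1 day to 4.76 at 3 weeks.

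In sham cord, the Hox genes of the middle of the series gave signal. Paralogues 10 to 13 gave the lowest shares of detected features as a class, but the paralogue 10 genes within it did not. At the gene level 28 of 32 genes reached the filter level in sham. They were 6 of 6 genes of paralogues 1 to 3, 10 of 11 of paralogues 4 to 7, 6 of 6 of paralogues 8 to 9 and 6 of 9 of paralogues 10 to 13. Of all 14860 genes with a named cluster 10688 reached that level in sham, a share near that of paralogues 10 to 13. The filter level of the exon-level table is 4.85, the 40th percentile over that table. It was reached in sham by 80.6% of 36 probe sets of paralogues 8 to 9 and by 74.3% of 70 probe sets of paralogues 4 to 7. For paralogues 1 to 3 it was 59.0% of 39 probe sets, and for paralogues 10 to 13 it was 42.3% of 52. In that last class, Hoxa10, Hoxc10 and Hoxd10 had 5 of 7, 6 of 6 and 4 of 4 probe sets at that level. Its members of higher number had 3 of 9 (Hoxd11), 1 of 7 (Hoxa11), 1 of 8 (Hoxc13), 1 of 4 each (Hoxb13 and Hoxd13) and 0 of 3 (Hoxc12). Of all named probe sets 63.0% reached the same level, and of all Hox probe sets 64.0%. Each transcript cluster has its own probes, whose binding differs, so the signal of a gene was set against the filter level and not against the signal of another gene.

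**Figure D1:**
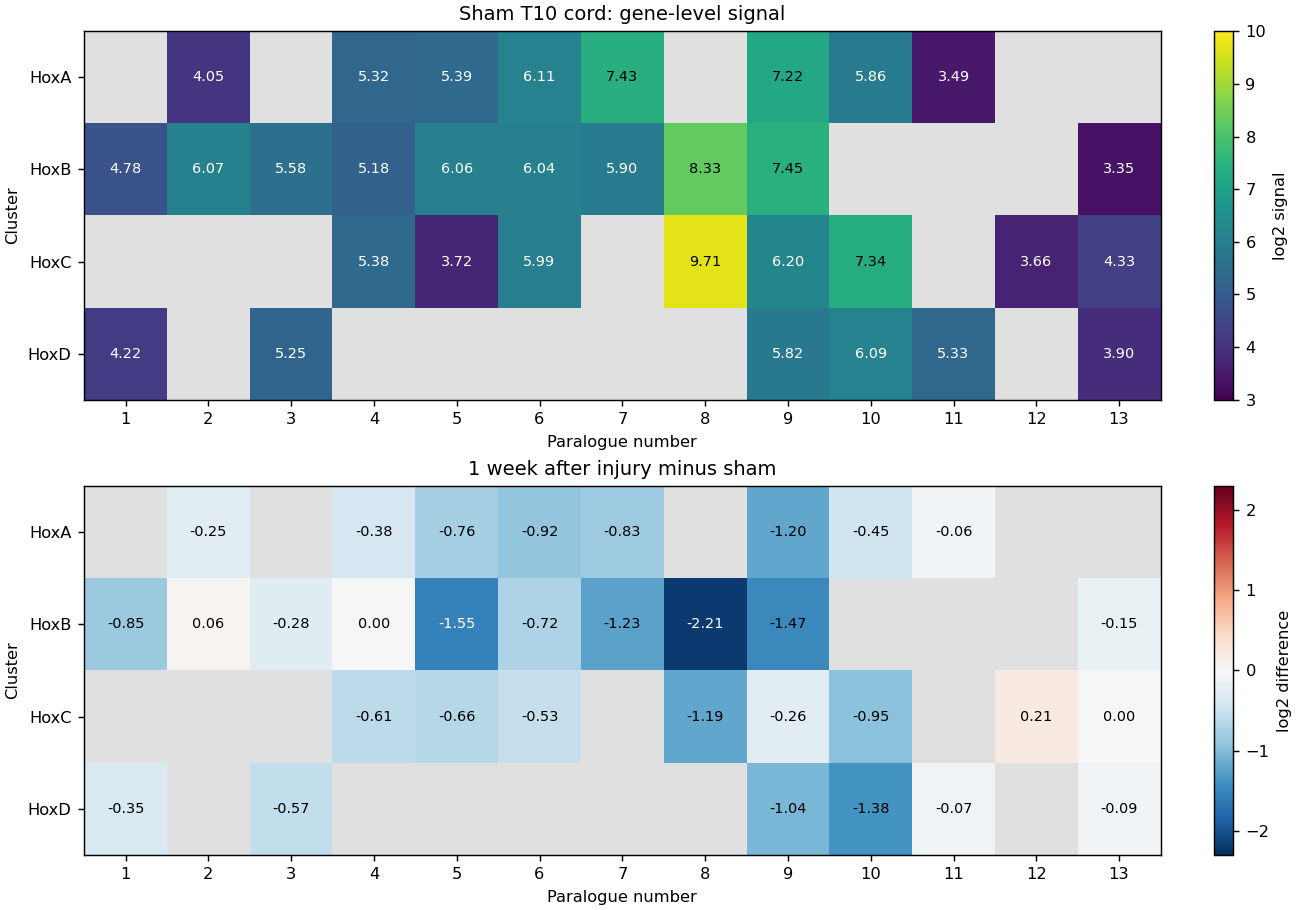
The upper grid gives the gene-level log2 signal in sham T10 cord and the lower grid the log2 difference of 1 week after injury from sham, by cluster (rows) and paralogue number (columns), with 1 array per group. Grey cells are empty in mouse or were not analysed here. The darkest blue cells of the lower grid, at -1.38 to -2.21, are Hoxb5, Hoxb8, Hoxb9 and Hoxd10, while paralogues 11 to 13 lie between -0.15 and 0.21.

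Paralogues 1 to 3 include Hoxb1, which sets the identity of a hindbrain segment that forms facial motor neurons, and Hoxa2, which patterns the second pharyngeal arch. Hoxb1 had a signal of 4.78 in sham and 4.49, 4.49, 3.93 and 4.60 on the injured arrays from 1 day to 3 weeks. Hoxa2 had 4.05 in sham and 3.69, 3.10, 3.80 and 4.02 on the injured arrays from 1 day to 3 weeks. Both were below sham on each injured array and back within 0.18 of it at 3 weeks. Hoxb2 gave 6.07 in sham, 5.50 at 3 days and 6.38 at 3 weeks. The Hoxb3 signal was 5.58 in sham and 4.77 at 1 day, its lowest value. Hoxd3 was at 5.25 in sham and between 4.66 and 4.68 on the 4 injured arrays, and Hoxd1 moved from 4.22 in sham to 3.88 at 1 week. None of these 6 genes changed by 2-fold at the gene level. Over exon-level probe sets, Hoxa2 was at -1.40 ± 0.55 at 3 days and -1.22 ± 0.46 at 1 week (SD over 3 probe sets), and Hoxb1 at -1.53 ± 1.06 at 1 week (2 probe sets), so both fell there. At the gene level the median difference of the 6 genes from sham was between -0.16 and -0.43.

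Paralogues 4 to 7 are genes of the neck and brachial cord and of the vertebrae from the neck to the chest. Hoxb5, which helps to place the shoulder girdle, had a signal of 6.06 in sham and 5.10, 4.79, 4.51 and 5.73 on the injured arrays from 1 day to 3 weeks. It fell by 1.27 at 3 days and by 1.55 at 1 week, and at 3 weeks it was 0.33 below sham. Hoxb7 had 5.90 in sham and 5.46, 5.30, 4.68 and 5.60 on the injured arrays from 1 day to 3 weeks. It fell by 1.23 at 1 week and lay below sham by less than 2-fold at the other times. Hoxc6, a gene of the limb-innervating motor column of the brachial cord, followed another course. Its signal was 5.99 in sham and 4.61, 4.90, 5.46 and 6.52 on the injured arrays from 1 day to 3 weeks. Its low point was thus at 1 day, with a fall of 1.38, and the 3 week array lay 0.53 above sham.

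The other genes of paralogues 4 to 7 stayed within 2-fold of sham at the gene level, while 4 of them, Hoxc4, Hoxc5, Hoxa6 and Hoxb6, fell at 1 week over exon-level probe sets. Hoxa5, which is needed for phrenic motor neurons, had 5.39 in sham, 4.57 at 3 days and 5.41 at 3 weeks. Hoxa6 had 6.11 in sham, 5.20 at 1 week and 6.45 at 3 weeks, Hoxb6 6.04, 5.32 and 5.82, and Hoxa7 7.43, 6.60 and 7.27. Hoxc5 was at 3.72 in sham, 3.07 at 1 week and 4.44 at 3 weeks, so only the 3 week array put it above the filter level. Of the paralogue 4 genes, Hoxa4 moved by -0.38 and Hoxc4 by -0.61 at 1 week. Hoxb4, known for its effect on blood stem cells, stayed at 5.18 on all arrays except at 3 days, where it was 4.99. At 1 week 10 of the 11 genes of paralogues 4 to 7 were below sham, beside 54.7% of all genes, with a median of -0.72. At 3 weeks 5 of 11 were (45.5%), near the 48.5% of all genes, with a median of 0.00.

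**Figure D2:**
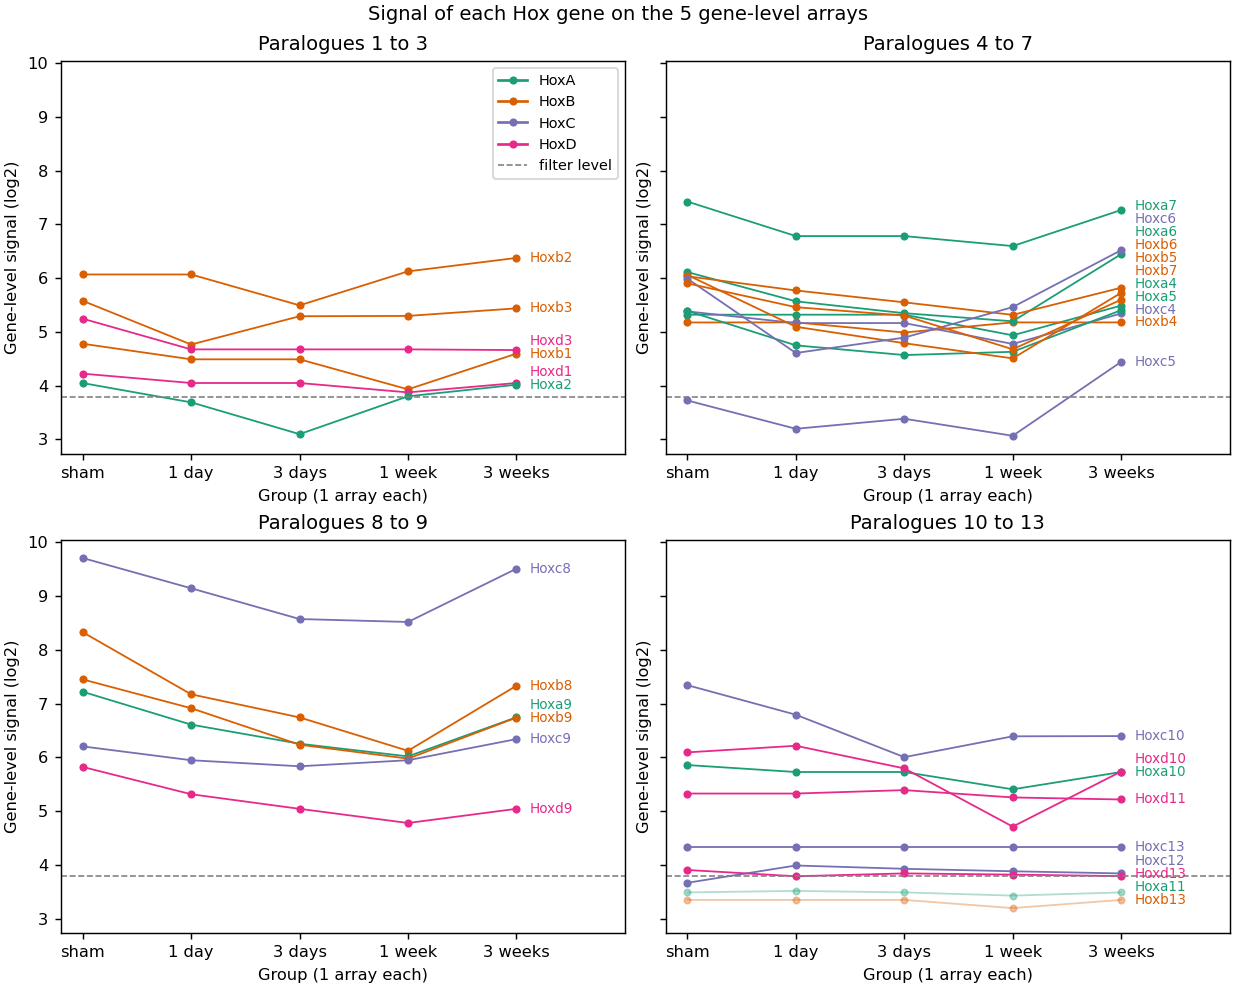
Gene-level log2 signal of the 32 Hox genes on the 5 arrays, 1 panel per paralogue class, coloured by Hox cluster, with 1 array per group and no error. The dashed line is the filter level of 3.79, and the pale lines are the 2 genes below it on every array. The 6 genes of paralogues 8 to 9 lie below sham at 1 day, 3 days and 1 week, beside 66.2%, 61.7% and 54.7% of all genes kept. All of them are higher at 3 weeks than at 1 week, beside 60.1% of all genes kept.

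Paralogues 8 and 9 are genes of the lower brachial and thoracic cord, and 5 of the 8 gene-level falls at 1 week were among their 6 members. Hoxb8, which is expressed in the dorsal horn, had a signal of 8.33 in sham and 7.17, 6.74, 6.12 and 7.33 on the injured arrays from 1 day to 3 weeks. It fell at 1 day, 3 days and 1 week, with differences of -1.16, -1.59 and -2.21. After quantile normalization the difference at 1 day was -0.96, short of 2-fold. Over exon-level probe sets Hoxb5 also fell at these 3 times, at -1.23, -1.52 and -2.27. At 1 week Hoxb8 was 4.62-fold lower than sham, and 2.72% of the genes kept were as low or lower. At 3 weeks its difference was -0.996, just short of 2-fold. Over its 4 exon-level probe sets the median difference at 1 week was -2.04 ± 0.70 (SD over probe sets, which is the spread of probes on 1 pair of arrays and not of animals).

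Hoxc8, which marks motor pools of the lower brachial cord, had 9.71 in sham and 9.14, 8.57, 8.52 and 9.51 on the injured arrays from 1 day to 3 weeks. It fell by 1.14 at 3 days and by 1.19 at 1 week, and its 3 probe sets gave -1.20 ± 0.20 at 1 week. Hoxb9 had 7.45 in sham and 6.91, 6.23, 5.98 and 6.74 on the injured arrays from 1 day to 3 weeks. It fell by 1.21 at 3 days and by 1.47 at 1 week (5 probe sets, -1.66 ± 0.33). Both genes fell at both levels of summary, but after quantile normalization their differences at 3 days were -0.98 and -0.99, short of 2-fold. Each was nearer to sham at 3 weeks than at 1 week.

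Hoxa9 had 7.22 in sham and 6.61, 6.25, 6.02 and 6.74 on the injured arrays from 1 day to 3 weeks, a fall of 1.20 at 1 week (6 probe sets, -1.43 ± 0.50). Hoxd9 had 5.82 in sham and 5.31, 5.04, 4.78 and 5.04 on the injured arrays from 1 day to 3 weeks, a fall of 1.04 at 1 week (9 probe sets, -1.78 ± 1.22) that became -0.96 after quantile normalization. The probe sets of Hoxd9 differed widely, although 8 of 9 were lower than in sham. Hoxc9 sets thoracic motor neuron identity by repressing the brachial program. Its signal was 6.20 in sham and 5.95, 5.83, 5.95 and 6.34 on the injured arrays from 1 day to 3 weeks, and it did not reach 2-fold at any time. The median over its 3 probe sets at 1 week was 0.19 ± 0.50, against -0.26 at the gene level.

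Paralogues 10 to 13 belong to the lumbar cord and levels behind it. Hoxc10, a gene of lumbar motor neurons, had 7.34 in sham and 6.79, 6.00, 6.39 and 6.39 on the injured arrays from 1 day to 3 weeks. It fell by 1.34 at 3 days and then stayed 0.95 below sham at both later times, and its 6 probe sets gave -1.05 ± 0.10 at 3 weeks. Hoxd10, which acts with it in lumbar motor neurons, had 6.09 in sham and 6.21, 5.79, 4.71 and 5.74 on the injured arrays from 1 day to 3 weeks. It fell by 1.38 at 1 week only, with 4 of 4 probe sets lower (-1.17 ± 0.59). Hoxa10, which suppresses ribs in the lumbar vertebrae, was at 5.86 in sham and 5.40 at 1 week, its lowest value. Hoxd11, a gene of the forearm and kidney, ranged from 5.21 to 5.39 over the 5 arrays.

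The genes of paralogues 12 and 13 gave signals near the filter level on every array. Hoxc12 was at 3.66 in sham and at most 3.99 after injury. Hoxd13, which patterns the digits, was between 3.79 and 3.90. Hoxc13, which acts in hair and nails, had the value 4.33 on all 5 arrays. Hoxa11 was between 3.43 and 3.51, and Hoxb13, a gene of the prostate and tail, was at 3.35 except at 1 week, where it was 3.19. The filter level is a percentile and not a floor, as the values of Hoxa11 and Hoxb13 below it show. Whether signals this low lie above background was not tested, so an absence of change in these genes says little.

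Counted over the 30 Hox genes kept, no gene rose at any of the 4 times, and the falls were most numerous at 1 week. At 1 day 2 genes fell, Hoxb8 and Hoxc6, which is 6.67% of the 30, beside 4.09% of all genes kept that fell and 3.79% that rose. At 3 days 6 fell (20.0%), beside 9.57% of all genes that fell and 5.93% that rose: Hoxb5, Hoxc6, Hoxb8, Hoxc8, Hoxb9 and Hoxc10. After quantile normalization 3 fell at 3 days (10%), beside 6.79% of all genes, and Hoxc6, Hoxc8 and Hoxb9 were no longer among them. At 1 day that setting left Hoxc6 alone (3.33%), beside 2.12% of all genes. At 1 week 8 fell (26.7%), beside 13.9% of all genes that fell and 11.3% that rose: Hoxb5, Hoxb7, Hoxb8, Hoxc8, Hoxa9, Hoxb9, Hoxd9 and Hoxd10. At 3 weeks 0 fell, beside 3.40% of all genes that fell and 8.50% that rose. The 4 comparisons share the sham array, so a high or low value there moves a gene at all 4 times.

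The median difference of the 30 genes from sham was -0.40, -0.53, -0.63 and -0.13 in order of time. The medians of all 11280 genes were -0.15, -0.12, -0.06 and 0.00. Below sham by any amount were 23, 26, 26 and 20 Hox genes in the same order, beside 66.2%, 61.7%, 54.7% and 48.5% of all genes. From 1 week to 3 weeks the signal was higher in 24 of the 30 genes (80.0%) and lower in 4, beside 60.1% of all genes that were higher. The median step was 0.53 for the Hox genes and 0.09 for all genes.

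By class, the falls at 1 week were 0 of 6 genes kept of paralogues 1 to 3, 2 of 11 of paralogues 4 to 7, 5 of 6 of paralogues 8 to 9 and 1 of 7 of paralogues 10 to 13 at the gene level, beside 13.9% of all genes. Over exon-level probe sets they were 2 of 6, 6 of 11, 5 of 6 and 1 of 8, beside 15.6% of all genes, so the count for paralogues 4 to 7 was 3 times that of the gene level. The gene-level medians at 1 week were -0.31, -0.72, -1.20 and -0.09. In the last class Hoxa10, Hoxc10 and Hoxd10 were at -0.45, -0.95 and -1.38, and the other genes kept were between -0.09 and 0.21. The genes of paralogues 8 to 9 had sham signals from 5.82 to 9.71, and among the 6183 genes kept in that range 19.9% fell at 1 week, with a median of -0.19. In the range of paralogues 4 to 7, 9.71% of all genes fell, with a median of -0.02. Across the 30 Hox genes, the difference at 1 week had a Spearman correlation of -0.07 with paralogue number and of -0.65 with the sham signal. The latter was -0.34 across all genes kept. These correlations are across genes on 1 pair of arrays, which share the sham value, and genes are not independent replicates. No test between the classes was possible with 1 array per group.

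By chromosomal cluster, falls at 1 week were 1 of 7 genes kept in HoxA, 4 of 9 in HoxB, 1 of 8 in HoxC and 2 of 6 in HoxD at the gene level. These are 14.3%, 44.4%, 12.5% and 33.3% of the genes kept, beside 13.9% of all genes, so HoxA and HoxC lay near the share of all genes. The HoxB falls were Hoxb5, Hoxb7, Hoxb8 and Hoxb9. The gene between them, Hoxb6, was at -0.72, and Hoxb2 and Hoxb4 of the same cluster were at 0.06 and 0.00. The median of HoxB was -0.85 at 1 week and -0.21 at 3 weeks. All 7 genes kept of HoxA and 6 of 6 of HoxD were below sham at 1 week, beside 54.7% of all genes. At 3 weeks HoxD was still below sham in 6 of 6 genes, with a median of -0.27. HoxC had 3 of 8 below (37.5%) and a median of 0.07, beside 48.5% of all genes below sham.

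The exon-level probe sets gave falls in the genes named above and in others. Of the 197 Hox probe sets 141 reached the exon filter level on at least 1 array. At 1 day 110 (78.0%) were lower than in sham and 37 (26.2%) fell, beside 66.3% and 12.1% of all probe sets. At 3 days the shares were 80.9% and 35.5%, beside 63.4% and 18.2%. At 1 week 116 of these (82.3%) were lower than in sham and 61 (43.3%) fell, beside 56.9% and 19.8% of all probe sets, while 5 rose. At 3 weeks 93 (66.0%) were lower and 14 (9.93%) fell, beside 50.7% and 6.00%. Probe sets of 1 gene share its transcript and are not replicates. All 8 genes with a fall at 1 week on the gene level also had a median over probe sets of at least 2-fold lower. In addition Hoxb1, Hoxa2, Hoxc4, Hoxc5, Hoxa6 and Hoxb6 did so, at -1.02 to -1.78. Hoxa3, measured on the exon level alone with 4 probe sets, was at -0.0038 ± 0.84 at 1 week and 0.28 ± 0.13 at 3 weeks. Hoxa11 and Hoxb13, not kept at the gene level, were at 0.92 and 0.50 over 2 probe sets and 1 probe set.

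**Figure D3:**
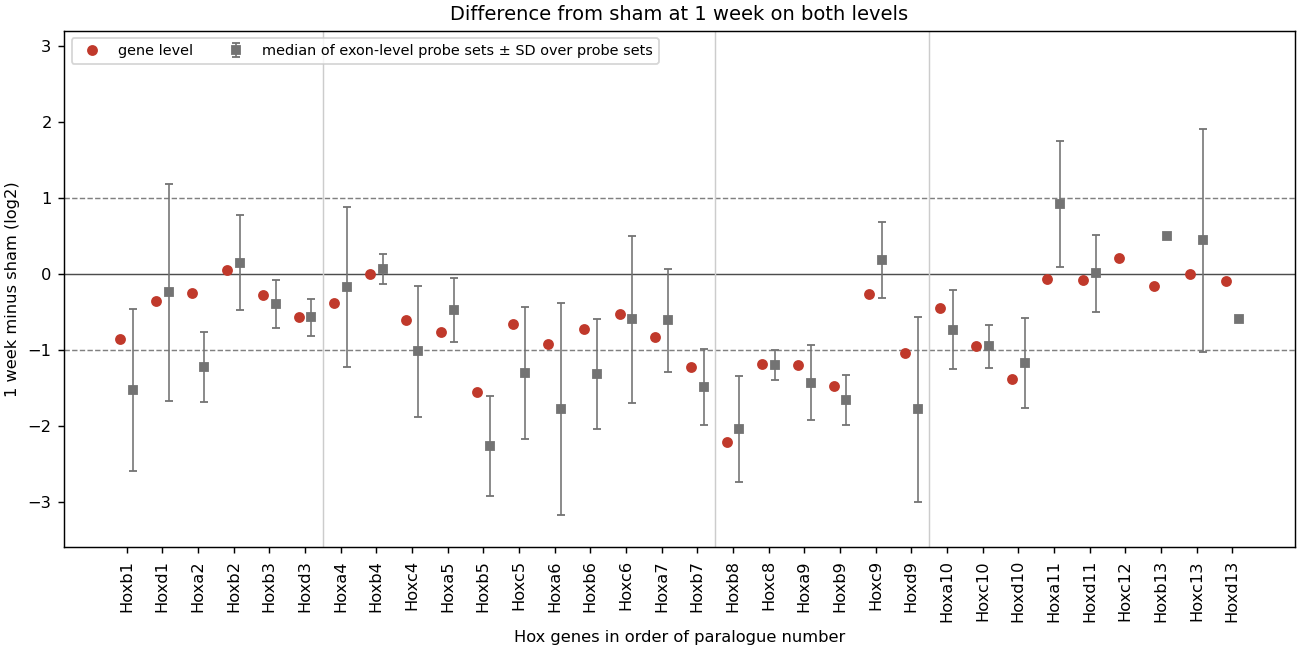
Log2 difference of 1 week after injury from sham for the 32 Hox genes in order of paralogue number, at the gene level (circles) and as the median over exon-level probe sets (squares). Bars are the SD over the probe sets of 1 gene on 1 pair of arrays, squares without bars rest on 1 probe set, and dashed lines mark 2-fold. Both markers are below -1 in the 8 genes that fell, from Hoxb5 to Hoxd10.

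Of the 8 genes that fell at 1 week, 4 had a promoter in the RefSeq table of the GRCm38.p6 assembly, and their 250 bases before the transcription start are printed to show what these promoters look like, with that of Hoxb4, which did not move. Capitals mark matches, on either strand, to a Hox-Pbx motif (TGATNNAT), a Cdx motif (TTTATNG) or a retinoic acid receptor half-site (AGGTCA), chosen after the values were seen. The windows are chr11:96281655-96281904 on the plus strand for Hoxb8, chr6:52227371-52227620 on the minus strand for Hoxa9, chr2:74697513-74697762 on the plus strand for Hoxd9, chr2:74691641-74691890 on the plus strand for Hoxd10 and chr11:96318017-96318266 on the plus strand for Hoxb4. Those of Hoxb8 and Hoxd10 lie inside the RefSeq span of their own gene, which has a start farther upstream.
Hoxb8: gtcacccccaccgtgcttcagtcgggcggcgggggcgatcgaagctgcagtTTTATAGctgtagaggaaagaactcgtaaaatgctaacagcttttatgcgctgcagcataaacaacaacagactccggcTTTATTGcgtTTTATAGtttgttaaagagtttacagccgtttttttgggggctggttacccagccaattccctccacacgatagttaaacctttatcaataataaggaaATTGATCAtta
Hoxa9: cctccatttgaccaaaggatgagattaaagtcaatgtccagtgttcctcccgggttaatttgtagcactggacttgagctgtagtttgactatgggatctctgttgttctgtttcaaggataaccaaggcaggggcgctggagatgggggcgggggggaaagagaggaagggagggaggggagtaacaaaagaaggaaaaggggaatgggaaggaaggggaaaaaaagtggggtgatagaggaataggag
Hoxd9: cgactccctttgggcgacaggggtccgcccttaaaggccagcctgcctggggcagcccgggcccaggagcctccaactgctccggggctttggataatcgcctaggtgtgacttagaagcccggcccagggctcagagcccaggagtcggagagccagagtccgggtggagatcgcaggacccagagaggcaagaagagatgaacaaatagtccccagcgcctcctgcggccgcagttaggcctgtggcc
Hoxd10: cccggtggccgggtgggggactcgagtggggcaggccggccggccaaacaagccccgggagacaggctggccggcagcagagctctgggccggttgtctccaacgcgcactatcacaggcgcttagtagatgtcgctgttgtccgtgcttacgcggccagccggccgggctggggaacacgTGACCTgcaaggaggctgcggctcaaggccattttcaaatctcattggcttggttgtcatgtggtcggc
Hoxb4: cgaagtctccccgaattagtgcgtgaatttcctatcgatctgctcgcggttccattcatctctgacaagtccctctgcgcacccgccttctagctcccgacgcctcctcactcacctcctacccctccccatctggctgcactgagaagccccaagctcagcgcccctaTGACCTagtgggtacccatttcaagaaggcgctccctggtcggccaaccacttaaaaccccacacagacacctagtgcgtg

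The Hoxb8 window held 3 Cdx matches and 1 Hox-Pbx match, and the windows of Hoxa9 and Hoxd9 held none of the 3 motifs. Hoxd10 and Hoxb4, a gene that fell and one that stayed at its sham level, each held 1 half-site. A promoter was found for 17 of the 32 genes, with 19 windows in all. The Hox-Pbx motif occurred in 4 of the 19 windows (21.1%) and in 7.68% of all 32851 promoters of the same length. The Cdx motif occurred in 1 of 19 (5.26%) and in 9.81% of all, and the half-site in 4 of 19 (21.1%) and in 14.0% of all. The median GC content of the Hox windows was 59.2%, with 13 CpG dinucleotides, against 52.4% and 6 in all promoters. A match is a match of letters and not a bound site.

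Hox proteins bind DNA with cofactors of the Pbx, Meis and Pknox families. Of 9 such genes listed, 7 were measured and kept, and 0, 3, 2 and 0 of them fell in order of time, with none that rose, beside 4.09%, 9.57%, 13.9% and 3.40% of all genes that fell. Meis2 had 7.98 in sham and 7.06, 6.34, 6.17 and 7.01 on the injured arrays from 1 day to 3 weeks, a fall of 1.82 at 1 week (15 probe sets, -1.94 ± 0.52). Meis1 had 6.00 in sham and 5.08, 4.92, 4.72 and 5.39 on the injured arrays from 1 day to 3 weeks, a fall of 1.28 at 1 week. Both Meis genes, whose products stabilise Hox on DNA, were thus lowest at 1 week and nearer to sham at 3 weeks. The list median was -0.98 at 3 days and -0.41 at 1 week.

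Polycomb proteins keep silent Hox genes off and Trithorax proteins keep active ones on. Of 22 such genes listed 17 were kept. Cbx8 fell by 1.18 at 1 day, to 3.25, which is below the filter level. This is 5.88% of the 17, near the 4.09% of all genes that fell at 1 day. At the gene level no other member changed by 2-fold at any time. The 1 exon-level probe set kept for Cbx8 was at -1.49 at 1 day and -1.37 at 3 days. The list median was -0.19, -0.02, 0.00 and 0.05 in order of time. Of 16 listed genes that act upstream of Hox in the embryo, 10 were kept, with 3 that rose (30.0%) and 0 that fell at 1 week, beside 11.3% and 13.9% of all genes. Aldh1a2, which makes retinoic acid, had 4.53 in sham and 3.87, 5.11, 7.18 and 7.49 on the injured arrays from 1 day to 3 weeks. Egr2, an activator of hindbrain Hox genes and also a regulator of Schwann cell myelin, went from 4.01 in sham to 6.05 at 1 week and 6.35 at 3 weeks. The Cdx genes Cdx1 and Cdx2, direct activators of Hox clusters in the embryo, were at -0.25 and -0.19 at 1 week at the gene level. They were nearer to sham on the other gene-level arrays. Over exon-level probe sets at 1 week, Cdx1 was at -1.04 ± 0.96 (2 probe sets), past 2-fold, and Cdx2 at 0.06 ± 0.23 (3 probe sets).

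Of 13 listed genes that flank the Hox clusters, 8 were kept, with a median of -0.11 at 1 week, 1 that rose and 1 that fell (12.5% each), near the 11.3% and 13.9% of all genes. Skap2 was at 6.28 in sham and 8.08 at 1 week. Lnpk, beyond Evx2 at the posterior end of HoxD, was at 6.28 in sham and 5.40, 5.37, 4.69 and 5.37 on the injured arrays from 1 day to 3 weeks, a fall of 1.59. The homeobox genes at the cluster ends, Evx1 and Evx2, were at -0.10 and -0.06 at 1 week. None of 18 listed noncoding RNAs of the Hox clusters had a transcript cluster with 1 symbol, and they were not analysed here.

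Transcription factors of spinal neuron identity were compared as another list. It mixes factors of dorsal to ventral identity with others, such as Neurod2 and Foxp1. Of 26 listed, 20 were kept, and 0, 0, 5 and 0 fell and 0, 0, 1 and 2 rose at the 4 times. At 1 week this was 25.0% that fell and 5% that rose, beside 13.9% and 11.3% of all genes, and at 3 weeks 10% rose, beside 8.50%. Lbx1, a factor of dorsal interneurons, went from 4.46 in sham to 3.08 at 1 week, where it was below the filter level. Neurod2, a neuronal differentiation factor, went from 5.29 to 4.01, but its 3 exon-level probe sets gave -0.42 ± 1.73, within 2-fold. Foxp1, which serves as a Hox accessory factor in motor neurons and is also expressed outside neurons, rose from 6.26 in sham to 7.81 at 1 week and 7.63 at 3 weeks. The list median was -0.20 at 1 week, between those of the Hox genes and of all genes. The 5 brain regional genes kept had a median of -0.17 at 1 week, and none changed by 2-fold at any time. En1 is counted in both of these lists.

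Markers of cell types moved on the same arrays, and the part of these cell types in the Hox differences was not tested. Which of them carry Hox transcripts was not measured. In a bulk sample, fewer cells of a type and less RNA per cell cannot be told apart. Neuron markers fell in 1, 8, 16 and 7 of 17 genes in order of time, with medians of -0.51, -0.83, -2.26 and -0.96. Of all genes kept, 4.09%, 9.57%, 13.9% and 3.40% fell at these times. Syt1, a synaptic vesicle protein, fell by 3.18 at 1 week and Ina, a neurofilament protein, by 3.17. The linear signals of the list summed to 22158, 17020, 12654, 5766 and 13071 over the 5 arrays from sham to 3 weeks. That sum was lowest at 1 week. Motor neuron markers fell in 6 of 6 genes kept at 1 week, with Mnx1 and Isl1 below the filter level on every array, and oligodendrocyte markers in 9 of 11. The sums were 837 and 223 for motor neuron markers, and 19433 and 8124 for oligodendrocyte markers, in sham and at 1 week. Astrocyte markers fell in 1 of 11 at 1 week (9.09%), no more than the 13.9% of all genes, with a median of -0.56.

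The medians of the macrophage, fibroblast and meningeal, skeletal muscle and Schwann cell markers lay above sham at all 4 times. The cause was not tested. Of all genes kept, 3.79%, 5.93%, 11.3% and 8.50% rose in order of time. Macrophage markers rose in 10 of 10 genes at 1 week, with a median of 4.64 and a sum of 16291 against 1413 in sham. Fibroblast and meningeal markers rose in 11 of 11 at 1 week and at 3 weeks, with sums of 1014 in sham, 14194 at 1 week and 13637 at 3 weeks. Skeletal muscle markers rose in 8 of 8 genes at 1 day and at 3 days, 4 of 8 at 1 week and 1 of 8 at 3 weeks, with sums of 184, 2966, 1739, 402 and 280 over the 5 arrays in order. In sham 7 of the 10 macrophage, 10 of the 11 fibroblast and meningeal and 7 of the 8 muscle markers reached the filter level. The others passed the filter only through injured arrays, so their rise is partly set by the filter. Schwann cell markers rose in 2 of 5 genes at 1 week and 4 of 5 at 3 weeks. Endothelial markers rose in 2 and fell in 2 of 8 at 1 week, with a median of -0.02.

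**Figure D4:**
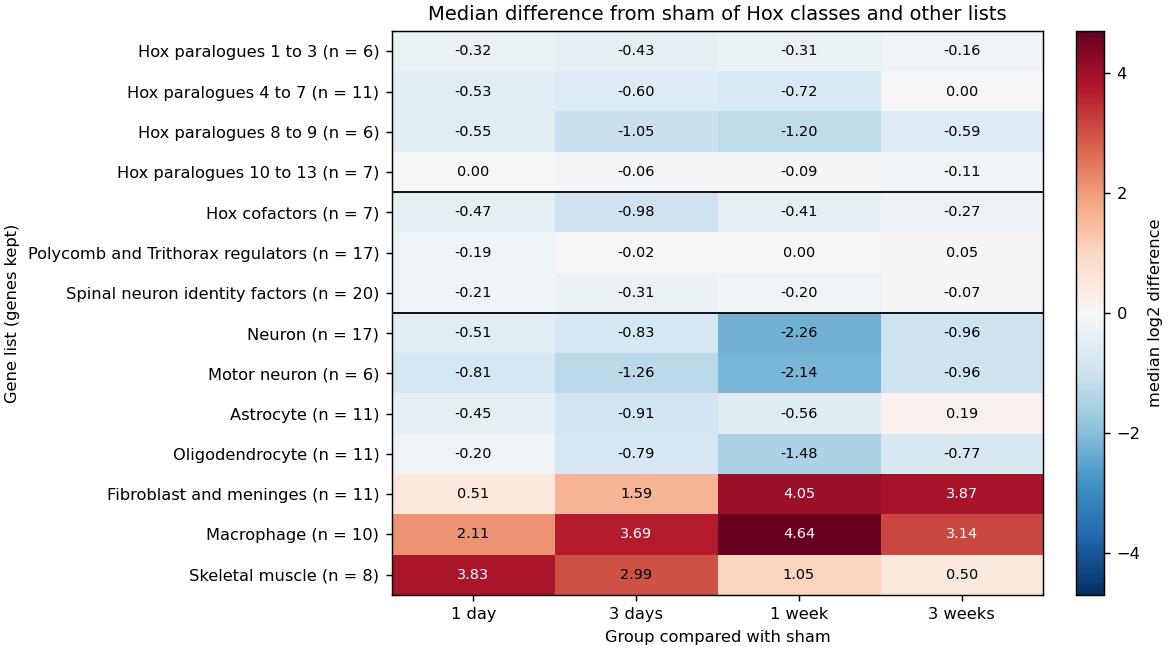
Median log2 difference from sham of the 4 Hox paralogue classes, of lists of related regulators and of cell type markers, at each time after injury, with the number of genes kept in brackets and 1 array per group. Paralogues 8 to 9 go from -0.55 at 1 day to -1.20 at 1 week and -0.59 at 3 weeks, and the neuron markers from -0.51 to -2.26 and -0.96.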

How the data were processed

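The authors deposited log2 signals of 23332 transcript clusters, each a probe group for 1 gene locus, and of 229581 probe sets, each for part of an exon, for the same 5 groups in 10 samples. The base of the logarithm is not stated in the files, and base 2 was taken because the highest gene-level value, 12.9, would lie far beyond a scanner's range as a natural logarithm. Per the submitters' processing notes, GCOS and the mm8 build were used; how background was corrected, arrays were normalized and probes were summarised is not stated in them. The medians of the arrays spanned 0.24 at the gene level and 0.43 at the exon level. The precision is limited by 1 array per group, and the labels describe the pools of both levels alike. Whether both levels summarise the same hybridisations is not stated, so the exon level is not counted as a replicate of the gene level.

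Values were used as deposited. Symbols came from the platform annotation and were updated through RefSeq gene identifiers, 14996 clusters having 1 symbol, 1019 several and 7317 none. Another 2 clusters that name a Hox gene carry several symbols and were left out. Where clusters shared a symbol, the one with the highest mean over 5 arrays stood for the gene. Differences, medians and counts past 2-fold were computed with Python 3.11.15, numpy 2.4.6 and pandas 2.3.3, with no test, and the counting was tested on simulated data. The members and the 16 lists (9 of cell types, 7 of related genes) were chosen with earlier results of these data known. Every Hox gene was to be named, and from other lists at most the 2 largest rises and falls past 2-fold at 1 week, of which some are given; Cbx8, the Cdx, Evx, Mnx1 and Isl1 genes were named after their values were seen. Alternatives covered array scaling, the filter, the choice of cluster, the exon level and the fold.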

Additional observations from a re-analysis of the deposited data

How the results depend on the processing

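No alternative turned the direction of a Hox gene that fell, and no Hox gene rose by 2-fold under any of them. The medians over the Hox genes stayed below 0 at every time, from -0.29 to -0.54, -0.39 to -0.74, -0.59 to -0.79 and -0.12 to -0.29 in order of time. Quantile normalization left 1 fall in place of 2 at 1 day, without Hoxb8, and 3 in place of 6 at 3 days, without Hoxc6, Hoxc8 and Hoxb9, and gave 1 at 3 weeks. Centring the arrays on their medians gave 2 falls at 3 weeks, Hoxb8 and Hoxc10. Probe-set medians gave 4, 10, 14 and 1 falls in order of time, and these held every fall found at the gene level. A 1.5-fold threshold gave 7, 13, 16 and 4 falls at the 4 times, and 1 rise at 3 weeks. The 3 other filters could not change the counts of falls. Each Hox gene that fell had a mean signal of at least 5.20 over the 5 arrays, above the filter levels of 3.79 and 4.61. At 1 week 8 falls became 7 under quantile normalization, which dropped Hoxd9. The mean over clusters of a symbol could not change a Hox gene, because each has 1 cluster, so that setting tells nothing about them. A stricter level, the 50th percentile, left 24 of 32 genes detected in sham in place of 28. Quantile normalization moved the median of all genes by 0.14 at 1 day, 0.10 at 3 days and -0.11 at 3 weeks, and centring by -0.16 at 3 weeks. Relative to the median of all genes, the Hox median at 1 week was -0.58 as deposited, -0.56 after quantile normalization and -0.58 after centring. Among all genes, the share of rises among 2-fold changes went from 48.1% to 67.9% at 1 day and from 38.3% to 50.6% at 3 days with quantile normalization, and from 71.5% to 54.4% at 3 weeks with centring. Differences of single Hox genes moved by more than the SD of their probe sets in 5 cases under centring, 6 under quantile normalization and 17 at the exon level, and in 123, 122 and 107 cases did not. Centring shifts all genes by the same amount at a given time, so its cases depend only on the SD. A gene whose probe sets differ widely passes more easily under each setting. Genes without an SD over probe sets were judged against the median SD of the Hox genes. No paired analysis was possible because each group has 1 array per level. The cause of these shifts was not tested.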

Other observations

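In 14 of the 32 Hox genes (43.8%) at least 2 of the 5 gene-level arrays carried a value equal to 5 decimals, beside 31.4% of all clusters. Hoxc13 had 1 value on all 5 arrays, as did 2.94% of all clusters. Hoxd1, Hoxd3, Hoxa4, Hoxb4, Hoxa10 and Hoxa11 each had 1 value on 3 arrays, and Hoxb13 on 4. The gene-level and exon-level differences of the 29 Hox genes with both had a Pearson correlation across genes of 0.84 at 1 week, a description of 1 pair of arrays per level.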
